A study of Mus musculus with 46 samples.

Results

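The difference between kidney and cerebellum in the effect of lacking the p150 form of ADAR1 was measured by mRNA sequencing in C57BL/6 mice at postnatal day 23. The genotypes are labelled P195A_p150neg and P195A_p150pos, so every animal, the p150-positive ones included, carried the P195A allele of Adar and none was plain wild type. The second allele makes no p150 in p150-negative animals and makes it in p150-positive animals. The series holds 46 libraries from 16 animals, with liver as a further tissue that is not used here. Of 31 libraries labelled kidney or cerebellum, 27 were kept: 5 p150-negative and 7 p150-positive kidneys, and 8 p150-negative and 7 p150-positive cerebella. The other 4, numbered 5, 20, 31 and 34 in the table, were left out because they hold RNA of other organs. Both tissues were kept for 11 animals, 5 p150-negative and 6 p150-positive, and their 22 libraries gave the comparison, with each animal set against itself. RNA came from bulk organs frozen in TRIzol, and sex is not given in the labels.

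The label check used summed CPM of tissue-defining genes, where CPM is a gene's count per 1000000 counts of its library. The 12 kept kidneys had 9057 to 20240 CPM of 4 kidney-defining genes and at most 2.86 CPM of 4 cerebellar ones. The 15 kept cerebella had 1250 to 3192 CPM of the cerebellar genes and at most 3.05 CPM of the kidney ones. None of the 4 libraries left out exceeded 17.3 CPM for the tissue on its label. Library totals ran from 269213 to 6237043 counts. The shallowest was the kidney of p150-negative animal 3, in which several genes were at 0. The cerebellum of p150-negative animal 2 stood apart from its group in interferon-stimulated genes. Its kidney library was among those left out, so animal 2 is not in the within-animal comparison, and cerebellar values are given with and without it.

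ADAR1 converts adenosine to inosine in double-stranded RNA. Its p150 isoform is made from an interferon-inducible promoter and carries the Z-nucleic-acid-binding domain in which P195A lies. Cellular double-stranded RNA that is left unedited can be bound by the sensor MDA5 (Ifih1), which signals through MAVS to type I interferon. Interferon in turn acts through a transcription factor complex that contains STAT2 and IRF9 to switch on interferon-stimulated genes. Kidney tubules and the neurons and glia of the cerebellum both respond to interferon.

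For 5 interferon-stimulated genes the log2 fold change of p150-negative over p150-positive animals was called smaller in kidney than in cerebellum. All 5 rose in cerebellum, while in kidney Rtp4, Ifit3 and Irf7 rose and Ifi27l2a and Ifitm3 did not pass the test. The 5 were Rtp4 (a chaperone of receptors), Ifi27l2a (a mitochondrial interferon-induced protein), Ifit3 (an interferon-induced protein with tetratricopeptide repeats), Irf7 and Ifitm3. Irf7 is the transcription factor that amplifies interferon production, and Ifitm3 is a membrane protein that blocks virus entry. Called were thus 5 of 52 tested members of the interferon-stimulated list, against 7 of 14689 genes tested (0.0477%) with a kidney effect called below the cerebellar effect. The measure is the log2 interaction, the log2 fold change of p150-negative over p150-positive in kidney minus the same in cerebellum. It was tested with edgeR's quasi-likelihood test with the animal as a block, with p-values adjusted by Benjamini-Hochberg across every gene tested and calls made under 0.05. Across both directions 9 genes were called (0.0613%), 7 below 0 and 2 above 0 (0.0136%). At an unadjusted p under 0.05 there were 393 genes below 0 (2.68%) and 328 above 0 (2.23%). With identifier part by tissue added to the fit, 0 genes were called in edgeR (480 at an unadjusted p under 0.05), and the 9 genes had adjusted p of 0.069 to 0.169. Within a part, the median over the interferon-stimulated list of the p150-negative minus p150-positive difference in log2 CPM, kidney minus cerebellum, was -1.81 in P094 (2 p150-negative and 3 p150-positive animals), -1.35 in AC (2 and 1) and -1.98 in AS (1 and 1). These are subsets, chosen after seeing the data, of the animals that gave the calls, so they are a description with no test. What the identifier parts mark is not given.

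Rtp4 (chromosome 16, 23520291 to 23614222, + strand, GRCm38) had 125, 260.0, 214, 128 and 203 CPM in the 5 p150-negative kidneys, against 34.2 to 78.2 CPM with a median of 40.8 in the 7 p150-positive kidneys. In cerebellum it ran from 10.6 to 292 CPM with a median of 131 in the 8 p150-negative libraries, against 4.49 to 12.4 CPM with a median of 7.04 in the 7 p150-positive ones. The kidney groups did not overlap, and the cerebellar groups overlapped through animal 2 alone, since the other p150-negative cerebella started at 104 CPM. Its log2 fold change was 1.74 ± 0.27 (SE) in kidney (adjusted p = 0.00537) and 4.26 ± 0.49 in cerebellum (adjusted p = 0.000165), or 4.44 ± 0.32 without animal 2. The log2 interaction was -2.69 ± 0.32 (adjusted p = 0.0035). Within an animal, log2 CPM in kidney minus cerebellum was 0.06, 1.15, 0.06, 0.07 and 0.13 in p150-negative animals, against 2.48 to 3.19 in p150-positive animals. Rtp4 thus stood at like levels in both tissues of 4 p150-negative animals, while every p150-positive animal had more in its kidney.

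Ifi27l2a (chromosome 12, 103442167 to 103443680, - strand) had 96.6, 409, 294, 252 and 368 CPM in p150-negative kidneys, against 21.5 to 147 CPM (median 52.5) in p150-positive kidneys. Its cerebellar range was 4.02 to 505 CPM (median 155) in p150-negative libraries, against 1.35 to 7.43 CPM (median 2.35) in p150-positive libraries. Both pairs of groups overlapped, in cerebellum only through animal 2. The log2 fold change of 6.01 ± 0.73 in cerebellum was called (adjusted p = 0.000184), the 1.98 ± 0.47 in kidney was not (adjusted p = 0.0724), and the log2 interaction was -3.74 ± 0.49 (adjusted p = 0.00543).

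Ifit3 (chromosome 19, 34583531 to 34588731, + strand) had 289.5, 279, 402, 232 and 302 CPM in p150-negative kidneys, against 55.3 to 134 CPM (median 80.8) in p150-positive kidneys. In p150-negative cerebella it ran from 21.6 to 592 CPM (median 484), against 6.89 to 43.9 CPM (median 22.0) in p150-positive cerebella. The kidney groups were apart, and so were the cerebellar groups once animal 2 was set aside (lowest 286 CPM). The log2 fold changes were 1.71 ± 0.23 in kidney (adjusted p = 0.002) and 4.17 ± 0.50 in cerebellum (adjusted p = 0.000184), and the log2 interaction was -2.69 ± 0.37 (adjusted p = 0.00708). Reads of Ifit3 and its near-identical neighbour Ifit3b may be shared or dropped in counting, so the split between them is uncertain. Ifit3b had a log2 interaction of -2.27 and missed the call (adjusted p = 0.0554).

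Irf7 (chromosome 7, 141262706 to 141266481, - strand) had 241, 260.0, 586, 335 and 384 CPM in p150-negative kidneys, against 28.3 to 125 CPM (median 54.3) in p150-positive kidneys. Cerebellar values were 3.47 to 265 CPM (median 145) in p150-negative animals, against 1.9 to 12.1 CPM (median 5.76) in p150-positive animals. The kidney groups were apart, and animal 2 was the only p150-negative cerebellum inside the p150-positive range. It rose in both tissues, by 2.33 ± 0.34 log2 units in kidney (adjusted p = 0.00405) and 4.46 ± 0.61 in cerebellum (adjusted p = 0.000411). The log2 interaction was -2.48 ± 0.37 (adjusted p = 0.015). That call was lost without animal 1, 9, 15 or 16, each left out in turn, with adjusted p of 0.0695, 0.072, 0.067 and 0.0539 and log2 interactions of -2.49, -2.32, -2.40 and -2.53.

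Ifitm3 (chromosome 7, 141009586 to 141010770, - strand) had 330.4, 427, 923, 600.1 and 886 CPM in p150-negative kidneys, against 225 to 587 CPM (median 351) in p150-positive kidneys. Cerebella held 39.5 to 446 CPM (median 363) in p150-negative animals, against 19.1 to 79.8 CPM (median 49.0) in p150-positive animals. The kidney groups overlapped, and a log2 fold change of 0.74 ± 0.28 was not called there (adjusted p = 0.369). In cerebellum it rose by 2.69 ± 0.38 (adjusted p = 0.000523), and the log2 interaction was -2.27 ± 0.30 (adjusted p = 0.00543).

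**Figure D1:**
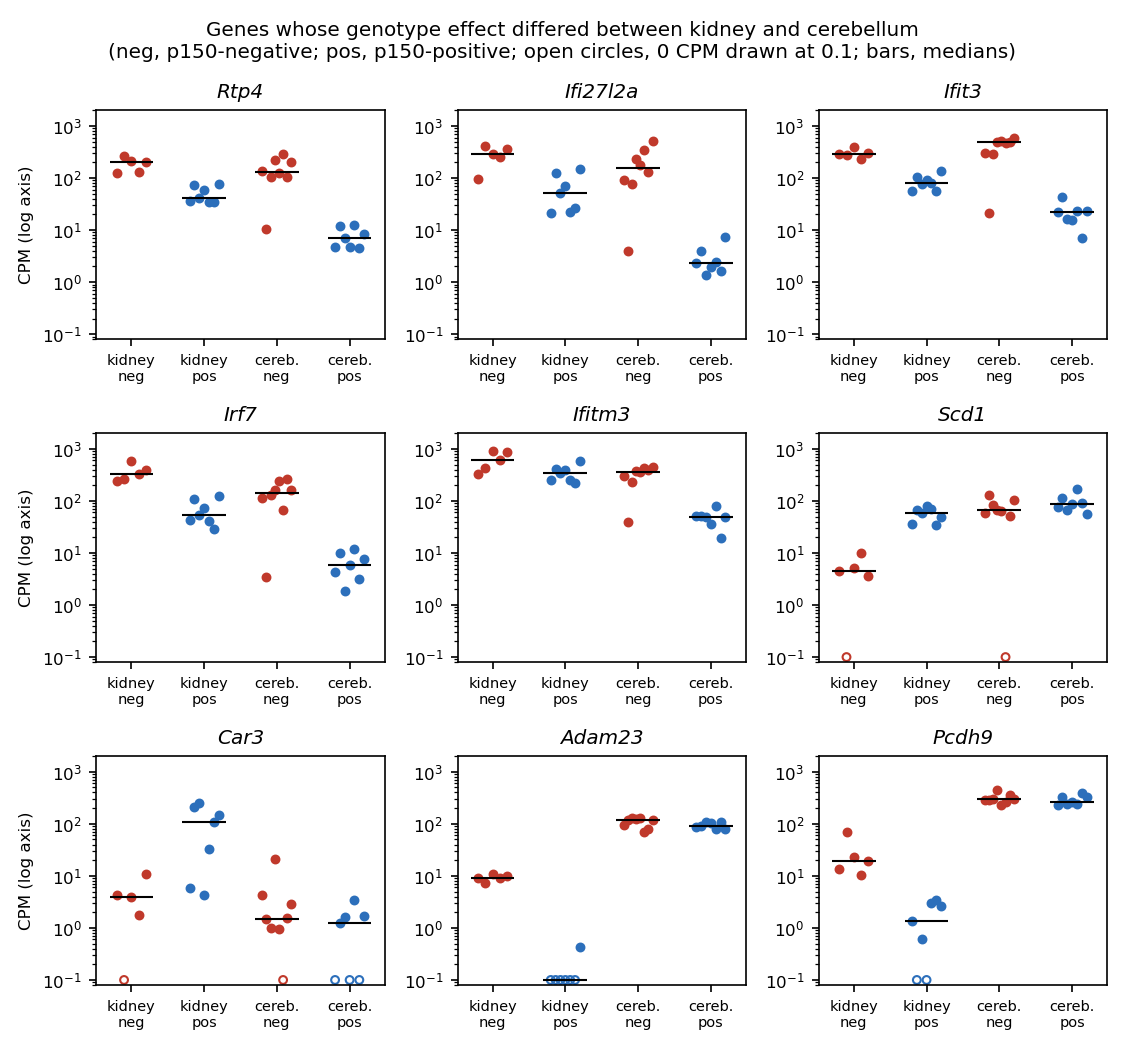
CPM (log axis) of the 9 called genes in each library, grouped as p150-negative and p150-positive kidney and then p150-negative and p150-positive cerebellum. Points are animals, bars are medians and open circles are libraries at 0, drawn at 0.1. In the first 5 panels the p150-positive kidneys lie above the p150-positive cerebella, and the single low p150-negative cerebellum is animal 2.

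Promoters of 3 of these genes are shown because members that move together can share short elements (RefSeq, GRCm38.p6, 250 bases before to 50 after the gene start, read 5′ to 3′ along the gene). Capitals mark matches, on either strand and with overlaps allowed, to the core of the interferon-stimulated response element, read as GAAA, NN and GAAA without a gap. No other motif was searched.
Ifit3, chr19:34583279-34583578, + strand: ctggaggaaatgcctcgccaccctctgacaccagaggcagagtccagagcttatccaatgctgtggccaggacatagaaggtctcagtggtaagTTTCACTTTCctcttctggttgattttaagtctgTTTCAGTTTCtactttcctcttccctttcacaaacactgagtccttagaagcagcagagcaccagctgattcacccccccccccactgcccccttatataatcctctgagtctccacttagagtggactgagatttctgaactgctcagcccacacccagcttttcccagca
Ifitm3, chr7:141010695-141010994, - strand: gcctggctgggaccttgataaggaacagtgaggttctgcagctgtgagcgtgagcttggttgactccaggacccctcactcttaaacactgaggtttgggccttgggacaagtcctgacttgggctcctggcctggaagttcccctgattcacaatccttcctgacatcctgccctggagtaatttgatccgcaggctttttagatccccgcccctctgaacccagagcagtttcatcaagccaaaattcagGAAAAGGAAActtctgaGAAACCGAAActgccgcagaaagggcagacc
Irf7, chr7:141266375-141266674, - strand: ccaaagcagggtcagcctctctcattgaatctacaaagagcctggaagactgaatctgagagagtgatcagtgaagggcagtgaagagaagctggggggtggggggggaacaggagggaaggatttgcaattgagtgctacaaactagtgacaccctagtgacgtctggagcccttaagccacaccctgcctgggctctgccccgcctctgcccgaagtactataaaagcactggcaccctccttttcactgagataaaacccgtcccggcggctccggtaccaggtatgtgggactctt
Ifit3 and Ifitm3 each held 2 matches and Irf7 held 0 in this window. Both matches of Ifit3 lay before the gene start used here, and both matches of Ifitm3 lay after it. The motif stood in 18 of the 39 promoters available for the interferon-stimulated list (46.2%), and in 3.99% of 27025 genes with a promoter of the same length. No entry was used for Rtp4 or Ifi27l2a. A match describes letters and is not a measured site.

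Over the whole interferon-stimulated list, the log2 interaction was below 0 for 50 of 52 members, with a median of -1.97. Over all 14689 genes it was below 0 for 7844 and above 0 for 6845, with a median of -0.05. At an unadjusted p under 0.05, 34 members were below 0 and 1 was above (all genes: 2.68% and 2.23%). The list's median log2 fold change was 1.52 in kidney (48 tested) and 3.14 in cerebellum (47 tested), or 3.32 in cerebellum without animal 2. In kidney 18 members rose (all genes: 46 of 11957 higher, 0.385%), and in cerebellum 38 rose (all genes: 95 of 13146 higher, 0.723%). No member was called lower in either tissue. Without the shallow kidney of animal 3, 29 of 50 rose in kidney (all genes: 0.969%). Without animal 2, 40 of 47 rose in cerebellum (all genes: 0.869%). Without animal 3 the interaction was below 0 for 49 of 52 members, with 5 called (all genes below 0: 0.0728%) and a median of -1.86 beside 0.13 over all genes. The within-animal difference between tissues did not overlap between genotypes for 16 members, all lower in p150-negative animals. Over all 14689 genes it did not overlap for 1.41%, with 141 lower (0.96%) and 66 higher (0.449%). The list was chosen with results of these animals known, so its direction is not independent evidence.

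Levels of the list differed between tissues in both genotypes. The median kidney minus cerebellum difference of the list was 0.65 log2 units in p150-negative animals and 2.57 in p150-positive animals. Mean log2 CPM over the list was 5.71, 4.02, 6.61, 5.95 and 6.35 in p150-negative kidneys, against 3.49 to 5.14 (median 4.18) in p150-positive kidneys. It ran from 1.89 to 5.82 (median 5.32) in p150-negative cerebella, against 1.27 to 2.91 (median 2.21) in p150-positive cerebella. The lowest p150-negative kidney was animal 3 and the lowest p150-negative cerebellum was animal 2. Within animals with both tissues, the p150-positive mean was higher in kidney for 50 of 52 members, and the p150-negative mean was higher in kidney for 35. In a bulk sample, more cells that express a gene and more RNA per cell cannot be told apart.

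**Figure D2:**
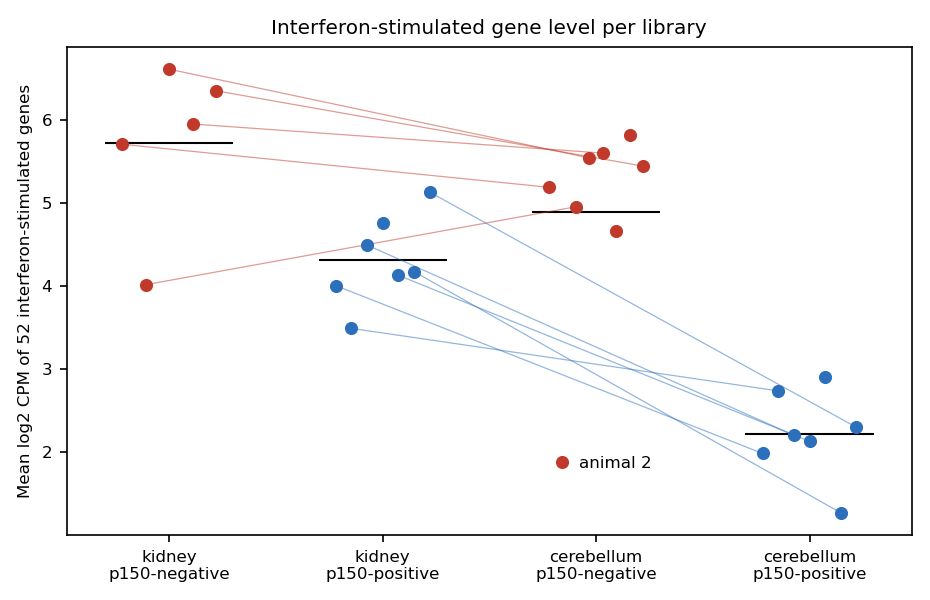
Mean log2 CPM of the 52 interferon-stimulated genes in each library (y axis) by tissue and genotype, with group means as bars and lines joining the libraries of one animal. The 7 p150-positive cerebella lie between 1.27 and 2.91, and animal 2 lies at 1.89.

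The scale matters to the direction. Counted as added CPM rather than as a factor, the increase in p150-negative animals was larger in kidney for 29 members and larger in cerebellum for 23. The 23 include Rsad2, whose kidney mean was lower in p150-negative (179 CPM) than in p150-positive animals (229 CPM). Ifit3 gained 216.5 CPM in kidney and 418.5 CPM in cerebellum (exact permutation test over the 11 animals, two-sided p = 0.00216, the smallest that 462 arrangements allow). Irf7 gained 294 CPM in kidney and 155 CPM in cerebellum (exact p = 0.00649). For Rtp4 the gains were 137 CPM in kidney and 152 CPM in cerebellum (exact p = 0.693). For Ifitm3 they were 285 CPM in kidney and 298 CPM in cerebellum (exact p = 0.892). At an unadjusted exact p under 0.05, 8 members gained more in kidney and 13 more in cerebellum. The negative log2 interactions of this list are thus differences in factor, and the added CPM had no common direction.

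Oas2, which makes the activator of RNase L, was 1 of the 2 members above 0, with a log2 interaction of 2.81 (unadjusted p = 0.0365, adjusted p = 0.997). It rose in kidney (4.04, adjusted p = 0.0258), and its cerebellar value of 1.62 was not called (adjusted p = 0.297). Stat2 was the other, at 0.04 (adjusted p = 1). Among genes named whatever they showed, Isg15 (a ubiquitin-like modifier) had -1.96 ± 0.49 (adjusted p = 0.397) and Ifit1 had -3.29 ± 0.72 (adjusted p = 0.238). The RNA-activated kinase Eif2ak2 had -2.08 ± 0.72 (adjusted p = 0.883), the Z-nucleic-acid sensor Zbp1 had -1.79 ± 1.10 (adjusted p = 1) and Lgals3bp had -1.28 ± 0.53 (adjusted p = 0.997). Each of these 5 was below 0 and none was called. Isg15, Ifit1 and Lgals3bp rose in both tissues when each tissue was tested alone. Eif2ak2 and Zbp1 passed the threshold in cerebellum and missed it in kidney (adjusted p = 0.771 and 0.0598), a difference that the interaction did not call. Eif2ak2 had 21.1, 0 (shallow animal 3), 37.8, 26.3 and 36.1 CPM in p150-negative kidneys, against 12.8 to 19.3 CPM in p150-positive kidneys. Zbp1 had 27.4, 119, 74.6, 22.7 and 33.6 CPM in p150-negative kidneys, against 0 to 16.2 CPM in p150-positive kidneys. The chemokine Cxcl10 had -1.51 ± 1.08 (adjusted p = 1) and rose in both tissues (3.71 in kidney and 5.41 in cerebellum).

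**Figure D3:**
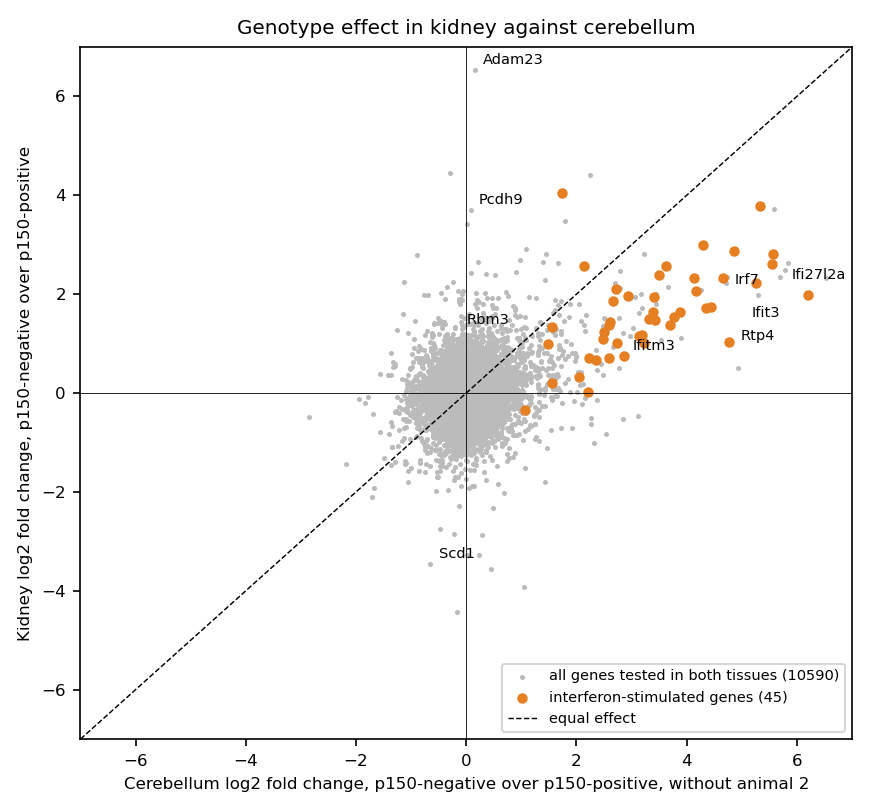
Log2 fold change of p150-negative over p150-positive in kidney (y axis) against cerebellum without animal 2 (x axis), for 10590 genes tested in both, with 45 interferon-stimulated genes in orange. Of these, 43 lie below the dashed line of equal effect.

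Antigen presentation followed the same direction without any call. All 19 tested members of the MHC class I and immunoproteasome list had a log2 interaction below 0, with a median of -1.17 (all genes: 7844 of 14689 below 0). At an unadjusted p under 0.05, 9 did so (all genes: 2.68%). In kidney 6 of 18 rose (all genes: 0.385%), and in cerebellum 11 of 18 rose (all genes: 0.723%), or 14 of 18 without animal 2 (all genes: 0.869%). B2m, the light chain of class I molecules, had 1495, 2050.4, 2449, 1263 and 1593 CPM in p150-negative kidneys, against 483 to 979 CPM in p150-positive kidneys. It had 177 to 1602 CPM in p150-negative cerebella, against 166 to 310.1 CPM in p150-positive cerebella. It rose in both tissues (1.26 ± 0.21 in kidney, 1.99 ± 0.29 in cerebellum), and its log2 interaction was -0.80 ± 0.24 (adjusted p = 0.639). H2-T23, a nonclassical class I heavy chain, came nearest to a call at -2.54 ± 0.46 (adjusted p = 0.0587): it rose in cerebellum (2.63 ± 0.32) and had 0.50 ± 0.31 in kidney (adjusted p = 0.771). Its p150-negative kidneys had 255, 78.0, 503, 281 and 232 CPM, against 115 to 223 CPM in p150-positive kidneys. Only the shallow kidney of animal 3, at 78.0 CPM, was not above every p150-positive kidney. H2-D1 rose in both, by 1.21 in kidney and 1.201 in cerebellum, with a log2 interaction of -0.07, and H2-K1 rose in both with a log2 interaction of -1.07 ± 0.29 (adjusted p = 0.475). Class I heavy chains are closely related, so reads may be split among them. Interferon-gamma-type GTPases, which attack pathogen vacuoles, had a median of -1.85 over 17 tested, with 16 below 0 and none called. Irgm1 rose in both tissues (1.80 ± 0.33 in kidney, 3.29 ± 0.38 in cerebellum).

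Adam23 and Pcdh9, genes best known from neural cells, rose in p150-negative kidney and were not called in cerebellum. Adam23, a membrane protein of the disintegrin family that binds LGI proteins at synapses (chromosome 1, 63445891 to 63596276, + strand), had 9.15, 7.43, 10.9, 8.91 and 9.84 CPM in the 5 p150-negative kidneys, against 0 CPM in 6 of the 7 p150-positive kidneys and 0.439 in the other. In counts these were 109 in p150-negative and 1 in p150-positive kidneys, a ratio of CPM of 198 with a 95% counting interval of 34.8 to 7899. Cerebella had 69.9 to 131 CPM (median 119) in p150-negative animals, against 78.4 to 108 CPM (median 91.9) in p150-positive animals, and these overlapped. Its log2 interaction was 6.43 ± 0.69 (adjusted p = 0.0025) and was called without each of the 11 animals in turn. Pcdh9, a protocadherin cell-adhesion protein (chromosome 14, 93013410 to 93890679, - strand), had 13.7, 70.6, 22.8, 10.2 and 19.3 CPM in p150-negative kidneys, against 0 to 3.43 CPM (median 1.35) in p150-positive kidneys. Cerebella had 233 to 453 CPM in p150-negative animals, against 233 to 397 CPM in p150-positive animals. It rose in kidney (3.70 ± 0.69, adjusted p = 0.0157), with 0.07 ± 0.14 in cerebellum and a log2 interaction of 3.37 ± 0.54 (adjusted p = 0.0271). The Pcdh9 call held in only 3 of the 11 fits that leave out an animal, those without 3, 5 or 10. Without 1, 4, 6, 8, 9, 13, 15 or 16 its log2 interaction was 3.12 to 3.57 and its adjusted p 0.0571 to 0.111.

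Traces of other neural genes were checked beside these rises. Kidney of animal 1 held 7.72 CPM of Snap25, 1.14 of Pcp2 and 1.14 of Gabra6. Adam23 was at 7.43 CPM or more in all 5 p150-negative kidneys. That lowest value came from shallow animal 3, with 269213 counts in its library, and rests on very few reads. Cerebellum-defining genes were at 0 CPM in the other 4 p150-negative kidneys. Whether neural RNA in the kidney samples had a part in the Adam23 and Pcdh9 rises was not tested. The p150-positive kidney with the 1 Adam23 count, animal 15, also held 2.63 CPM of Snap25 and 1.32 CPM of the cerebellum-defining genes. Purkinje and granule cell markers were called in no interaction, and Pcp2 had 3.09 ± 1.34 (adjusted p = 1) with all animals but -0.05 without animal 1. Col6a1 and Gmfb were among the 5 smallest p of positive interactions and were not called (adjusted p = 0.251 for both).

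Scd1 and Car3, genes with high levels in adipose tissue, fell in p150-negative kidney and had interactions below 0. Scd1 (stearoyl-CoA desaturase, chromosome 19, 44394455 to 44407879, - strand) had 4.57, 0, 5.25, 9.8 and 3.69 CPM in p150-negative kidneys, against 33.9 to 80.7 CPM (median 58.0) in p150-positive kidneys. It fell in kidney by 3.46 log2 units (SE 0.44, adjusted p = 0.00176), and the groups did not overlap. Cerebellar values were 0 to 133 CPM in p150-negative and 56.4 to 171 CPM in p150-positive animals, with the 0 in animal 11. The log2 interaction was -3.17 ± 0.50 (adjusted p = 0.0247), and the call was lost without animal 1, 4, 6, 8, 10, 15 or 16 (adjusted p 0.0666 to 0.11, log2 interaction -3.26 to -2.92). Car3 (carbonic anhydrase 3, chromosome 3, 14863512 to 14872523, + strand) had 4.29, 0, 3.85, 1.78 and 11.1 CPM in p150-negative kidneys, against 4.22 to 247 CPM (median 107) in p150-positive kidneys, which overlapped. Cerebella had 0 to 21.2 CPM in p150-negative animals and 0 to 3.45 CPM in p150-positive animals. Its log2 interaction was -7.62 ± 0.99 (adjusted p = 0.00543) and was called without each animal in turn. It fell in kidney by 4.50 (SE 0.97, adjusted p = 0.0418) and did not pass the filter on low counts in cerebellum alone. The size of its interaction thus also rests on cerebellar counts near 0. It was tested in 23 of the 24 alternative fits, not in the one with the filter passed within each tissue. The summed adipocyte genes Adipoq, Cfd and Plin1 had 0 to 89.2 CPM (median 10.5) in p150-negative kidneys, against 0.469 to 416 CPM (median 136) in p150-positive kidneys, which overlapped. The 2 p150-positive kidneys with the least adipocyte signal, animals 7 and 4, also had the least Car3 (4.22 and 5.72 CPM). Their Scd1 values, 80.7 and 36.3 CPM, lay above every p150-negative kidney. The part of fat tissue in the Car3 result was not tested.

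**Figure D4:**
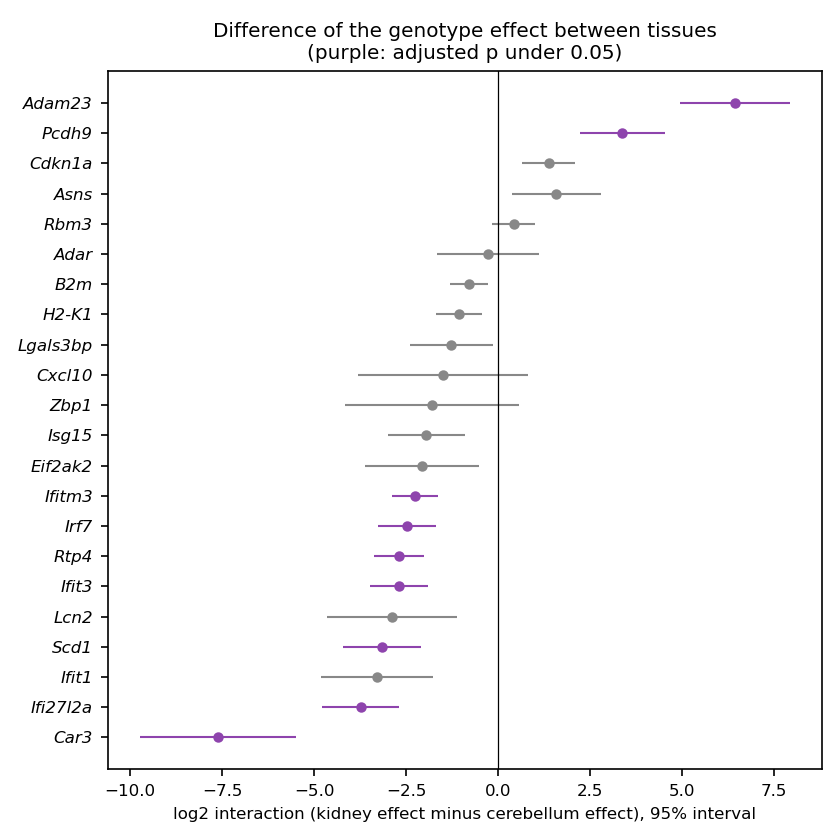
Log2 interaction (kidney effect minus cerebellar effect) with 95% intervals for 22 named genes, purple where the adjusted p was under 0.05. Adam23 and Pcdh9 lie above 0, while Rtp4, Ifi27l2a, Ifit3, Irf7, Ifitm3, Scd1 and Car3 lie below.

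Further genes with lower kidney values missed the threshold. Pvalb, a calcium-binding protein of the distal convoluted tubule as well as of Purkinje cells and interneurons, had 3.43, 0, 9.8, 8.46 and 13.1 CPM in p150-negative kidneys, against 22.5 to 158 CPM in p150-positive kidneys. The groups did not overlap and it fell in kidney by 2.87 log2 units (SE 0.60, adjusted p = 0.0336), while cerebella held 912 to 3331 CPM in p150-negative and 1164 to 1815 CPM in p150-positive animals. The log2 interaction was -2.96 ± 0.56 (adjusted p = 0.0892). Mapt, which encodes tau and was chosen after its values were seen, had 17.1, 14.9, 32.9, 30.7 and 34.0 CPM in p150-negative kidneys, against 54.4 to 73.1 CPM in p150-positive kidneys, with a log2 interaction of -1.61 ± 0.29 (adjusted p = 0.0562). The sodium-glucose transporter Slc5a2 had 127, 182, 115, 154 and 145 CPM in p150-negative kidneys, against 219 to 784 CPM in p150-positive kidneys, fell by 1.89 log2 units there (SE 0.32, adjusted p = 0.00854) and had a log2 interaction of -2.65 ± 0.74 (adjusted p = 0.515) with every cerebellum at or below 2.57 CPM.

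Rbm3, the cold-inducible RNA-binding protein, rose in both tissues. It had 158, 159.7, 129, 149 and 123 CPM in p150-negative kidneys, against 42.3 to 69.7 CPM (median 52.8) in p150-positive kidneys. Cerebella had 104 to 181 CPM (median 144) in p150-negative animals, against 43.5 to 105 CPM (median 66.9) in p150-positive animals. The log2 fold change was 1.28 ± 0.20 in kidney (adjusted p = 0.00537) and 0.94 ± 0.19 in cerebellum (adjusted p = 0.013). The difference of 0.42 ± 0.27 had a 95% interval of -0.16 to 1.00 and an adjusted p of 1. Cdkn1a, the p21 cell-cycle inhibitor, had 108, 149, 133, 117 and 55.7 CPM in p150-negative kidneys, against 12.7 to 57.0 CPM (median 25.2) in p150-positive kidneys. It rose in kidney (1.88 ± 0.35, adjusted p = 0.0163), had 0.44 ± 0.33 in cerebellum (adjusted p = 0.742) and a log2 interaction of 1.37 ± 0.34 (adjusted p = 0.397). Over 14 tested p53 targets, including Cdkn1a, 12 interactions were above 0 (all genes: 6845 of 14689), none was called and the median was 0.30.

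Stress and cell type lists gave no called interaction. The 28 tested targets of ATF4, the integrated stress response factor, had a median of 0.23, with 16 above 0 and 12 below. Asns, a target that makes asparagine, had 1.58 ± 0.57 (adjusted p = 0.925), and Ddit3 had -0.24 ± 0.61 (adjusted p = 1). Trib3 had -0.65 ± 1.87 and Atf3 1.91 ± 1.29 (adjusted p = 1 for both). The injury marker Lcn2 had -2.89 ± 0.83 (adjusted p = 0.559). It rose in cerebellum (4.56) and had an uncalled 2.36 ± 0.70 in kidney (adjusted p = 0.18). Its p150-negative kidneys had 85.7, 0 (shallow animal 3), 61.6, 45.9 and 130 CPM, against 0.938 to 36.2 CPM in p150-positive kidneys. Havcr1 was at 0 CPM in every cerebellum, so its interaction could not be estimated. In kidney Havcr1 had an uncalled 2.49 ± 0.74 (adjusted p = 0.18). Neutrophil genes had a median of 1.72 over 9 tested, and S100a8 had 69.7, 22.3, 49.4, 59.3 and 96.3 CPM in p150-negative kidneys, against 0.429 to 16.2 CPM in p150-positive kidneys. In cerebella S100a8 had 6.02 to 130.1 CPM in p150-negative animals, against 7.09 to 28.0 CPM in p150-positive animals, with a log2 interaction of 1.72 ± 0.88 (adjusted p = 1). S100a8 thus rose in kidney (3.48 ± 0.64, adjusted p = 0.0147) beside the interferon-stimulated genes. It was the 1 of 4 tested neutrophil genes called there (all genes: 0.385%), and without animal 3 there were 5 of 7 (all genes: 0.969%). The part of neutrophils in those results was not tested. Microglia and macrophage genes had a median log2 interaction of -0.71 over 24 tested, with 20 below 0. Without animal 3 the median was -0.42 with 17 below 0, beside 0.13 over all genes. In cerebellum 5 of 23 rose, C1qb, Ctss, C1qa, C1qc and Fcer1g (all genes: 0.723%), or 8 of 23 without animal 2 (all genes: 0.869%). In kidney 0 of 21 were called, or 1 of 21 without animal 3 (all genes: 0.969%), and no interaction of the list was called. Red cell genes were below 0 for all 9 tested (median -0.96) and some fell in each tissue, 3 in kidney (all genes lower: 0.309%) and 5 in cerebellum (all genes lower: 0.274%). Hba-a1, Hbb-bs and Bpgm were the 3 in kidney, and globin copies share reads.

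Adar itself was counted over the gene as a whole, so p150 cannot be told apart from p110 in these values and they do not check the labels. It had 15.7, 0, 24.9, 14.7 and 21.3 CPM in p150-negative kidneys, against 9.41 to 43.9 CPM in p150-positive kidneys. Cerebella had 17.6 to 87.8 CPM in p150-negative animals, against 14.4 to 39.0 CPM in p150-positive animals. The groups overlapped in both tissues and the log2 interaction was -0.28 ± 0.65 (adjusted p = 1).

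The cerebellum of animal 2 matched its label for some genes and not for others. Rtp4, Ifit3 and Isg15 were at 10.6, 21.6 and 2.56 CPM in it, inside the range of p150-positive cerebella, while Rbm3 was at 161 CPM and Gpx3 at 67.9 CPM, inside the range of p150-negative cerebella. Of 138 genes called in cerebellum without it, all 40 interferon-stimulated members and 60 of 73 other higher genes were nearer the p150-positive mean. Those other genes included members of the antigen presentation and interferon-gamma-type GTPase lists, such as B2m, H2-K1, Irgm1 and Igtp. They are thus not a set free of interferon-related genes. Of the 25 lower genes, 19 were nearer the p150-negative mean. In a fit without animal blocks over all 27 libraries, which includes it, 0 of 52 interferon-stimulated genes were called below 0 (all genes: 0.0535%), and with animal 2 left out 9 were (all genes: 0.155%). The median log2 interaction of the list was -1.61 with it and -1.78 without it in those fits. In limma voom over the same 27 libraries with a random animal effect, 0 of 52 were called (all genes below 0: 0.0335%), with a median of -1.27.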

How the data were processed

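Libraries were made with Nextera XT from DNase-treated TRIzol RNA, per the labels' protocols. The deposited table holds the authors' whole-number read counts per gene, not normalized. Per the submitters' processing notes the tools included FastQC 0.11.3, SAMtools 1.2 and Picard 1.134, with alignment and counting tools STAR 2.4.2a and HTSeq 0.4.1 and build GRCm38/mm10. The strand setting is not given in the sources used here, so overlapping genes cannot be told apart. After removal of 6 repeated identifiers, 53465 were used. Entries without a symbol (0.267% of counts) were kept.

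The interaction of genotype and tissue was fitted to 22 libraries of 11 animals with edgeR 4.0.16 in R 4.3.3: TMM, filterByExpr (minimum count 10, total 15), terms for animal, tissue and genotype by tissue, quasi-likelihood F test and Benjamini-Hochberg adjustment over all genes. Effects within a tissue were fitted on 12 kidneys and 15 cerebella. The code was tested on simulated data. Alternatives used limma 3.58.1 and DESeq2 1.42.0. Both libraries of a pair come from the same animal, which is the source of the pairing. Their deviations from group means correlated by -0.092 to 0.147. Named genes were those called, the 5 smallest p of a direction with fewer than 5 called, up to 3 members per list and a fixed set. All members and lists were chosen with earlier results of these data known. CPM per library was taken over its total count, and intervals on counts cover counting error only. Some genes are not reported here.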

Additional observations from a re-analysis of the deposited data

Results flagged for a closer look

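A value was picked out where the highest or lowest library of a group of 4 to 10 stood far from the nearest other by Dixon's test. Chance picks out about 1 in 20 groups, and here 38 of 179 gene and group pairs (21.2%) were picked out. Of these, 20 were low values in the cerebellum of p150-negative animal 2, in CPM: Ifi27l2a 4.02, Rtp4 10.6, Ifit3 21.6, Irf7 3.47, Ifitm3 39.5, Zbp1 0, Eif2ak2 8.05, Isg15 2.56, Ifit1 8.05, Lgals3bp 19.4, Cxcl10 3.66, B2m 177, H2-K1 32.4, Oasl2 0, Xaf1 2.01, Ifit3b 8.6, H2-T23 30.2, Irgm1 37.3, Igtp 7.68 and Tspo 11.0.

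The kidney of p150-negative animal 3, the shallowest library, had 0 CPM of Adar, Eif2ak2, Ddit3, Lcn2 and Mmp8 and 3.71 CPM of Asns, with high values of Gmfb (375.2 CPM) and Cyba (698 CPM). The cerebellum of p150-negative animal 11 had 0 CPM of Col6a1 and Scd1 and 87.8 CPM of Adar. Cerebella of p150-negative animals 16 and 8 were high in Mapt (290.2 CPM) and Ppp1r15a (65.7 CPM). Among p150-positive libraries, the cerebellum of animal 12 was high in Zbp1 (5.52 CPM) and H2-K1 (68.0 CPM). The cerebellum of p150-positive animal 13 had 0 CPM of Ifit1 and Ifit2, and the kidney of p150-positive animal 5 was low in Oasl2 (3.08 CPM).

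The genotype effect differed between kidney and cerebellum by edgeR's interaction test for 9 genes. Their log2 interactions were 6.43 for Adam23, 3.37 for Pcdh9, -2.27 for Ifitm3, -2.48 for Irf7, -2.69 for Rtp4, -2.69 for Ifit3, -3.17 for Scd1, -3.74 for Ifi27l2a and -7.62 for Car3.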

How the results depend on the processing

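The count of 9 called interactions (2 above 0, 7 below 0) was fitted with the animal as replicate block. Without the replicate block it was 17 over 27 libraries (9 above 0, 8 below, 3 shared with the 9) and 39 over 22 libraries (10 and 29, all 9 shared). Without animal 2 and without the block, a setting chosen after seeing the data, it was 33 (10 and 23, 7 shared). DESeq2 with the block called 87 (21 and 66, all 9 shared), no expression filter 92 (23 and 69, all 9 shared), and a filter passed within each tissue 14 (2 and 12, 8 shared). Car3 did not pass that last filter. All labelled libraries gave 4, and identifier part by tissue gave 0 in edgeR (480 at an unadjusted p under 0.05). RLE size factors gave 9, robust dispersion 10, no library under 1000000 counts 13, Xist as a covariate 7, and limma voom with a random animal effect over 27 libraries 13 (2 shared, Adam23 and Pcdh9, with all 5 interferon-stimulated calls lost). Leaving out 1 animal gave 6 to 15. The cause of these shifts was not tested.

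In kidney, 83 genes were called, 307 with DESeq2, 141 with no filter and 34 (without animal 8) to 211 (without animal 3) with 1 library left out. In cerebellum, 131 were called, 290 with DESeq2 and 91 to 179 with 1 library left out. Uncalled interactions turned sign as follows. Gfap (0.22) was -0.25 with DESeq2, -0.52 with all labelled libraries, -4.02 without animal 1, -0.19 without animal 6 and -0.13 without animal 13, and up to 1.09 otherwise with 1 animal left out. Pcp2 (3.09) was -0.052 without animal 1, and up to 3.47 otherwise with 1 animal left out. Without animal 3, the library under 1000000 counts, Adar (-0.28) was 0.12, Trib3 (-0.65) was 0.26 and Ddit3 (-0.24) was 0.15. Ddit3 was 0.05 without animal 5, and Trib3 was 0.08 without animal 9 and 0.31 without animal 16. With 1 animal left out the lowest values were -0.56 for Adar, -1.75 for Trib3 and -0.40 for Ddit3. Depth limits low genes most in the shallowest kidney library, and genes near 0 CPM in one tissue have wide intervals.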

Other observations

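Lrg1, Gpx3 and Aqp4 passed the test in cerebellum and not in kidney, and none of their interactions was called. Lrg1, a secreted acute-phase glycoprotein, rose in cerebellum by 4.76 log2 units and had 0.52 in kidney, with an uncalled log2 interaction of -4.26 (adjusted p = 0.251). Gpx3, a secreted glutathione peroxidase made mainly by the kidney, rose in cerebellum by 2.08 and had 0.19 in kidney, with -2.18 (adjusted p = 0.251). The water channel Aqp4 fell in cerebellum by 0.96 log2 units (adjusted p = 0.0081) and had 1.08 in kidney, with 1.64 (adjusted p = 0.559). Kidney Mmp8, a neutrophil collagenase, had 134 counts in p150-negative and 4 counts in p150-positive kidneys, a ratio of CPM of 60.9 with a 95% counting interval of 23.2 to 227. Of 83 genes called in kidney and 131 in cerebellum, 28 were called in both and all 28 in the same direction (33.7% of the kidney genes and 21.4% of the cerebellar genes).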
